A study of Mus musculus with 20 samples.

Results

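The enzymes of bile acid synthesis were followed in mouse liver through 10 genes, each taken by its symbol from the 54532 genes of the count table: *Cyp7a1*, *Cyp8b1*, *Hsd3b7*, *Akr1d1*, *Cyp27a1*, *Cyp7b1*, *Amacr*, *Acox2*, *Slc27a5* and *Baat*. Of these 10 genes, 9 passed a filter of at least 2 CPM (a gene's counts relative to its library's total) in at least 3 mice, together with 12289 genes in all, and *Hsd3b7* did not. The livers came from 20 male C57BL/6 mice made obese during 12 weeks on a high-fat diet (HFD), which then had Roux-en-Y gastric bypass (RYGB) or a sham operation and were kept for 8 weeks on chow or on HFD. The groups were called RYGB HFD, Sham HFD, RYGB Chow and Sham Chow, with 5 mice in each and 1 library per mouse. Every group, controls included, had thus been obese before surgery. The study reports body weights after surgery that were clearly higher in Sham HFD than in any other group, and treats this as a confounder. In every comparison with Sham HFD, body weight therefore cannot be told apart from surgery or diet. No engineered allele is named for any group, and the study describes the transcriptomes as those of fasted mice.

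Bile acids are made from cholesterol in hepatocytes. In the classic pathway, CYP7A1 adds a hydroxyl group to the sterol ring in the rate-limiting step, and CYP8B1 then adds the hydroxyl group that makes cholic acid. In the alternative pathway, CYP27A1 oxidizes the side chain of cholesterol first and CYP7B1 then oxidizes the ring. HSD3B7 and AKR1D1 modify the ring in both pathways, AMACR and ACOX2 serve the peroxisomal shortening of the side chain, and SLC27A5 and BAAT activate the acid and join it to taurine or glycine. Bile acids returning from the gut lower *Cyp7a1* and *Cyp8b1* through the nuclear receptor FXR (*Nr1h4*), its target SHP (*Nr0b2*) and an intestinal hormone that acts on FGFR4.

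In the GENCODE M21 annotation of GRCm38 (mm10), the build of the counts, *Cyp7a1* (ENSMUSG00000028240) lies on chromosome 4 from 6265612 to 6275633 on the minus strand, and *Cyp8b1* (ENSMUSG00000050445) on chromosome 9 from 121914356 to 121916305, minus strand, as a single exon. *Cyp27a1* (ENSMUSG00000026170) spans 74713574 to 74737892 of chromosome 1, plus strand, and *Cyp7b1* (ENSMUSG00000039519) spans 18071950 to 18243338 of chromosome 3, minus strand. *Amacr* (ENSMUSG00000022244) lies on chromosome 15 from 10981756 to 10996626, plus strand. Of the 10 genes, 5 had a promoter window in the RefSeq table for GRCm38.p6, from 250 bases before the start to 50 after it. The upstream 250 bases are shown for *Cyp8b1* and *Cyp27a1*, the genes with such a window that differed between Sham HFD and RYGB HFD in edgeR's fit of all 4 groups, in opposite directions. Capitals mark matches to any of 6 searched words.
Cyp8b1, chr9:121916306-121916555, minus strand: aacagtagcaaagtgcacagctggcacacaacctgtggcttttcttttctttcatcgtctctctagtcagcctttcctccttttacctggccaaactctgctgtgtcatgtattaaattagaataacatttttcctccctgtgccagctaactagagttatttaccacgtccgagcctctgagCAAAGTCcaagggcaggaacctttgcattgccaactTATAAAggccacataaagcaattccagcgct
Cyp27a1, chr1:74713285-74713534, plus strand: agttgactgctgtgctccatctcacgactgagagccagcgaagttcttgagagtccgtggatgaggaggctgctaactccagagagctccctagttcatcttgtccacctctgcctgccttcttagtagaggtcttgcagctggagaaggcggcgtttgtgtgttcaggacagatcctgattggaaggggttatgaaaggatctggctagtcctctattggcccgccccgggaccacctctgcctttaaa
The words, searched on both strands, were TCAAGG (part of the NR5A2 site), AGGTCA (a nuclear receptor core word), CAAAGTC (part of the HNF4A site), CACGTG (an E-box), GTTAAT (part of the HNF1 site) and TATAAA (the TATA box). TCAAGG and AGGTCA can overlap, in AGG or in TCA. The *Cyp8b1* window held CAAAGTC from base -67, a word found in 4.44% of the 32851 promoters of the table, and TATAAA from base -31, found in 13.6% of them. None of the 6 words occurred in the *Cyp27a1* window. *Akr1d1* held AGGTCA from bases -232 and -210 and TCAAGG from base -213, all on the minus strand, the last overlapping the match from base -210 in TCA, against 16.3% and 14.4% of all promoters. A match is a run of letters and not a shown binding site.

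Total counts ran from 14604854 to 22537498 per mouse, and levels are given as CPM scaled by the trimmed mean of M values (TMM). One library, RYGB Chow replicate 3, had the highest TMM factor (1.13, against 0.916 to 1.06 in the other 19) and the smallest share of counts in its 10 most abundant genes (14.4%). The hepatocyte markers *Alb*, *Ttr*, *Apoa1*, *Cps1* and *Serpina1a* summed to between 66019 and 117602 CPM in every group, the markers of the labelled tissue. In bulk tissue, fewer cells of a type cannot be told apart from less RNA per cell. Fold changes are log2 values from edgeR's quasi-likelihood test, positive where the group named second was higher, with a standard error (SE) and a p-value adjusted by the Benjamini-Hochberg method over the 12289 genes.

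Levels between genes were compared per kilobase of exon. *Slc27a5* had the highest median over the 20 mice, at 376 CPM per kb, followed by *Cyp27a1* at 254 and *Cyp8b1* at 249. *Baat* stood at 131 CPM per kb and *Cyp7b1* at 83.9, while *Akr1d1*, *Amacr* and *Acox2* lay between 54.3 and 68.8. *Cyp7a1*, the gene of the rate-limiting step, ranked 9 of 10 at 30.1 CPM per kb. *Hsd3b7* was last at 0.201 CPM per kb.

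The *Hsd3b7* level rests on only 1 to 29 counts per mouse. Its CPM ran from 0.0712 to 1.09 in Sham Chow, from 0.585 to 1.56 in RYGB Chow, from 0.0437 to 1.02 in Sham HFD and from 0.163 to 0.767 in RYGB HFD, and all groups overlapped. In the annotation, 62.0% of its 2769 exon bases also belong to *Gm49388* on the same strand, which had 0 counts in every mouse, and 62.4% to *9430064I24Rik* on the opposite strand, which had 0 to 8. How reads in overlapping genes were counted is not given in the sources used here, so the level of *Hsd3b7* is uncertain. Without the filter its log2 fold changes ran from -1.10 to 0.46 over the contrasts, with no adjusted p under 0.05 in edgeR's quasi-likelihood test.

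**Figure D1:**
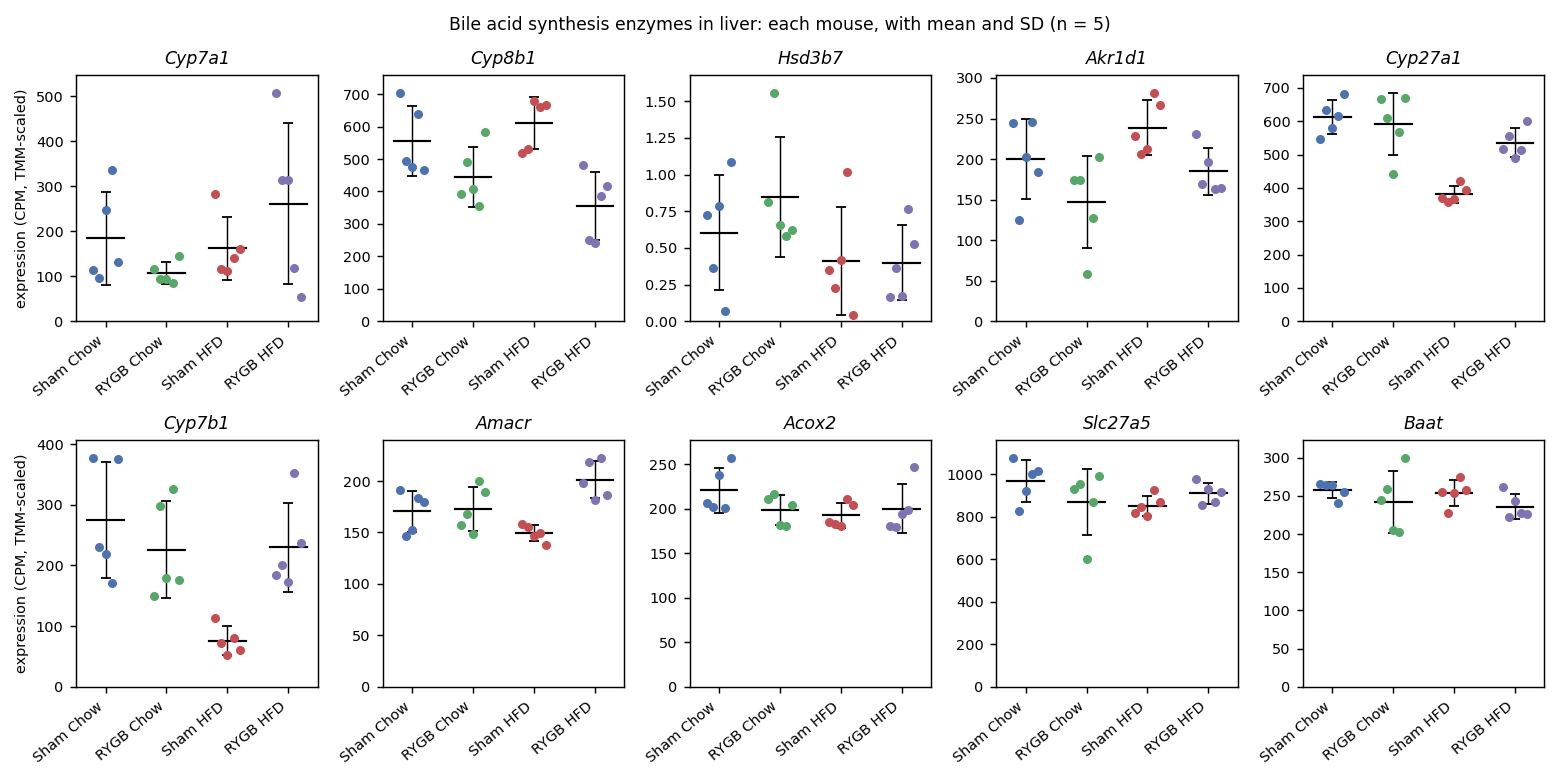
Expression of the 10 bile acid synthesis enzymes in CPM (vertical axis, linear, TMM-scaled) in the 4 groups (horizontal axis). Each point is a mouse, the wide bar the mean and the error bar the SD of 5 mice. The 5 Sham HFD mice lie below all 15 other mice for *Cyp27a1* and *Cyp7b1*, and *Cyp7a1* spreads from 54.7 to 508 within RYGB HFD.

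Surgery on HFD was examined in Sham HFD vs. RYGB HFD. In RYGB HFD, the alternative-pathway genes *Cyp7b1* and *Cyp27a1* and the racemase gene *Amacr* were higher, and the 12-alpha-hydroxylase gene *Cyp8b1* was lower. Thus 4 of the 9 tested enzymes passed the adjusted threshold, 3 higher and 1 lower, where 16.4% of all tested genes passed, 8.54% higher and 7.9% lower. In all 4 cases the groups did not overlap, as for 14.7% of all tested genes. The median log2 fold change was 0.096 for the 9 enzymes and 0.0095 for all tested genes.

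*Cyp7b1*, whose enzyme hydroxylates oxysterols, had the largest change. Its CPM was 114, 71.6, 52.0, 80.0 and 60.4 in the Sham HFD mice and 184, 201, 172, 353 and 237 in the RYGB HFD mice. Every RYGB HFD mouse lay above every Sham HFD mouse. The mean rose from 75.6 ± 23.9 (SD, n = 5) to 229.6 ± 73.3 (n = 5), a 3.04-fold difference (log2 fold change 1.60, SE 0.27, adjusted p = 0.000409, edgeR).

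*Cyp27a1*, which encodes the mitochondrial sterol 27-hydroxylase, rose less but with a narrower spread. Its CPM was 369.8, 356, 367, 420.5 and 393 in Sham HFD and 515, 557, 489.7, 514 and 601 in RYGB HFD. The groups did not overlap, and the log2 fold change was 0.49 (SE 0.098, adjusted p = 0.00172, edgeR), a 1.40-fold difference. *Amacr*, whose enzyme flips the side-chain methyl group so that peroxisomes can oxidize it, had CPM values of 158, 155, 147, 149.8 and 138 in Sham HFD and 198, 219, 182, 222 and 187 in RYGB HFD. All RYGB HFD mice were again the higher ones, at a log2 fold change of 0.43 (SE 0.093, adjusted p = 0.00303, edgeR).

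*Cyp8b1* moved the other way. Its CPM was 518, 530.3, 678, 659 and 668 in Sham HFD and 483, 252, 242, 385 and 417 in RYGB HFD. The highest RYGB HFD mouse lay just below the lowest Sham HFD mouse. The mean fell from 611 ± 79.4 (n = 5) to 356 ± 106 (n = 5), with a log2 fold change of -0.78 (SE 0.18, adjusted p = 0.00503, edgeR), so that the level was 1.72-fold lower in RYGB HFD.

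For each of these 4 genes taken alone, the exact permutation test of 5 against 5 mice gave a two-sided p = 0.00794, the smallest that 252 splits allow, and p = 0.0529 after adjustment over all 40 such tests. The other 5 tested enzymes did not pass. *Akr1d1*, whose reductase sets the bend of the ring system, was at 239 ± 33.7 CPM (n = 5) in Sham HFD and 185 ± 29.0 (n = 5) in RYGB HFD (log2 fold change -0.37, 95% interval -0.85 to 0.11). The 95% intervals of the log2 fold changes of *Slc27a5* (-0.12 to 0.32), *Baat* (-0.29 to 0.085) and *Acox2* (-0.14 to 0.25) all included 0.

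*Cyp7a1* was uneven within RYGB HFD. Its CPM there was 508, 315, 313, 118 and 54.7 in replicates 1 to 5, and in Sham HFD it was 283, 117, 112, 141 and 160.1. Thus 3 RYGB HFD mice lay above all Sham HFD mice, replicate 5 lay below all of them, and replicate 4 lay within their range. The log2 fold change was 0.69 (SE 0.44, 95% interval -0.22 to 1.60, adjusted p = 0.303, edgeR), and the spread among these mice was wider than the difference between the means.

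**Figure D2:**
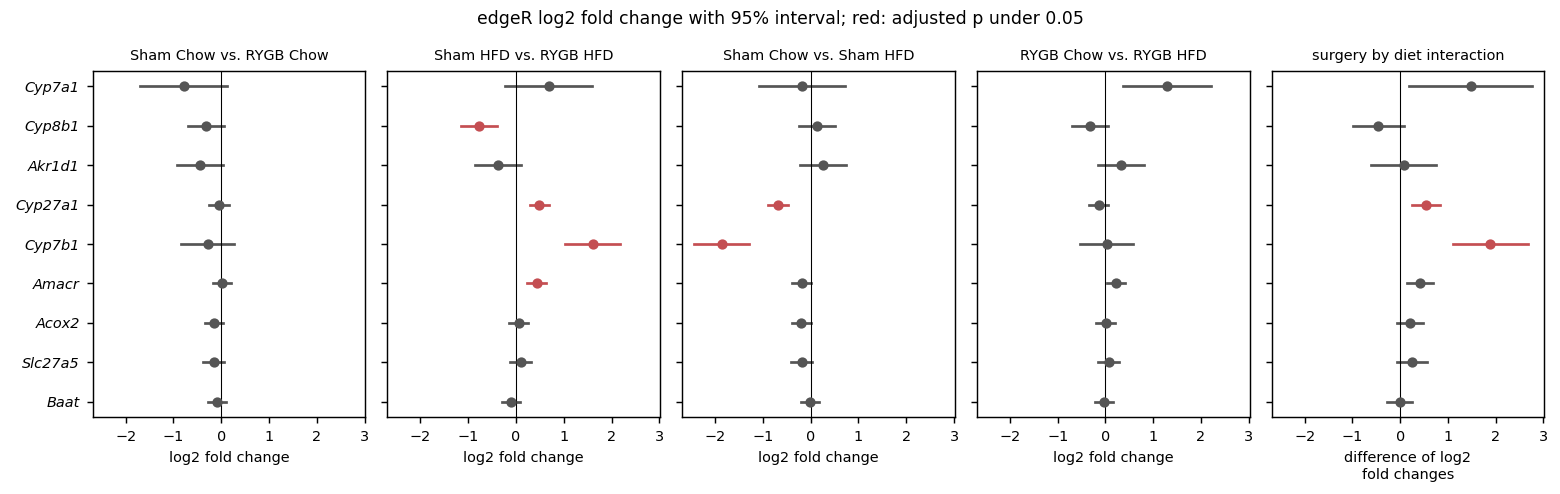
Log2 fold change (points) with its 95% interval (lines) from edgeR for the 9 tested enzymes in the 4 contrasts, and in the fifth panel the difference between the surgery effects on HFD and on chow. Red marks an adjusted p under 0.05: 4 genes between the HFD groups, 2 between the sham groups, 2 for the interaction and 0 in the other contrasts.

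Diet in sham-operated mice was examined in Sham Chow vs. Sham HFD, which shares its Sham HFD mice with the contrast above. *Cyp7b1* and *Cyp27a1* were lower in Sham HFD, and these were the 2 of 9 enzymes that passed, where 21.6% of all tested genes did (10.7% lower). Both had groups that did not overlap, as did 16.5% of all tested genes. *Cyp7b1* was at 377, 230.3, 218, 171 and 376 CPM in Sham Chow, and its level was 3.63-fold lower in Sham HFD (log2 fold change -1.86, SE 0.28, adjusted p = 9.88e-05, edgeR). *Cyp27a1* was at 548, 633, 579, 617 and 683 CPM in Sham Chow and 1.60-fold lower in Sham HFD (log2 fold change -0.68, SE 0.098, adjusted p = 8.06e-05, edgeR). For both genes the exact permutation test gave a two-sided p = 0.00794, and p = 0.0529 after adjustment over all 40 such tests.

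*Cyp8b1* and *Amacr*, which differed between the HFD groups, had log2 fold changes of 0.14 (SE 0.18, adjusted p = 0.617) and -0.19 (SE 0.093, adjusted p = 0.147) in this contrast. The Sham Chow mice had 704, 495, 475, 638 and 466 CPM of *Cyp8b1* and 192, 146, 152, 184 and 179.9 CPM of *Amacr*, and both ranges overlapped those of Sham HFD. *Acox2*, the oxidase of branched side chains, was at 221 ± 25.4 CPM (n = 5) in Sham Chow and 193 ± 13.9 (n = 5) in Sham HFD (log2 fold change -0.20, adjusted p = 0.141, edgeR). The median log2 fold change was -0.19 for the 9 enzymes and -0.0046 for all tested genes.

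Surgery on chow was examined in Sham Chow vs. RYGB Chow. Of the 9 tested enzymes, 0 passed with edgeR, limma-voom or DESeq2, and 0 had an unadjusted p under 0.05 in edgeR, where 0.057% of all tested genes passed after adjustment and 10.8% before it. The log2 fold changes ran from -0.79 for *Cyp7a1* (95% interval -1.70 to 0.13) to 0.016 for *Amacr* (-0.18 to 0.21). *Cyp7a1* in RYGB Chow was at 117, 94.8, 94.6, 84.3 and 145 CPM, and in Sham Chow at 113, 95.4, 247, 336 and 133. The 2 highest Sham Chow mice lay above all RYGB Chow mice and the other 3 lay among them. *Akr1d1* had a log2 fold change of -0.44 (SE 0.23, adjusted p = 0.506), and of -0.24 without RYGB Chow replicate 3, whose level was 58.2 CPM against 128 to 203 in the other 4.

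Diet after bypass was examined in RYGB Chow vs. RYGB HFD. None of the 9 enzymes passed with edgeR, limma-voom or DESeq2, where 3.65% of all tested genes did in edgeR. At an unadjusted p under 0.05, which 18.8% of all tested genes reached, there were 2 enzymes. *Cyp7a1* was 107 ± 24.2 CPM (n = 5) in RYGB Chow and 262 ± 179.7 (n = 5) in RYGB HFD (log2 fold change 1.29, SE 0.44, adjusted p = 0.111, edgeR), and without RYGB HFD replicate 5, the mouse with 54.7 CPM, the log2 fold change was 1.55 with an adjusted p = 0.0280. *Amacr* had a log2 fold change of 0.22 (SE 0.093, adjusted p = 0.195, edgeR). *Cyp7b1*, the gene that differed most between the sham groups, had a log2 fold change of 0.025 (95% interval -0.53 to 0.58), and *Cyp27a1* one of -0.14 (-0.35 to 0.061).

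The effect of surgery differed between the diets for 2 of the 9 enzymes, both upward, where 5.06% of all tested genes passed the interaction test (2.48% upward). At an unadjusted p under 0.05 there were 4 enzymes and 20.8% of all tested genes. The interaction includes the heavier Sham HFD mice, and the part of body weight in it was not tested. For *Cyp7b1* the log2 fold change of RYGB over sham was -0.28 on chow and 1.60 on HFD, a difference of 1.89 (SE 0.38, adjusted p = 0.00704, edgeR). For *Cyp27a1* it was -0.049 on chow and 0.49 on HFD, a difference of 0.54 (SE 0.14, adjusted p = 0.0285, edgeR), and this call was lost when any of 5 single mice was left out. The differences of *Amacr* (0.41, adjusted p = 0.0728), *Cyp7a1* (1.47, adjusted p = 0.175) and *Cyp8b1* (-0.46, adjusted p = 0.316) did not pass in edgeR. *Cyp8b1* was lower in RYGB than in sham mice by a log2 fold change of -0.32 on chow and -0.78 on HFD, which were not shown to differ.

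In the order of group means, *Cyp7b1* ran from Sham Chow (274 ± 95.7 CPM, n = 5) through RYGB HFD (229.6 ± 73.3) and RYGB Chow (226 ± 79.9) to Sham HFD (75.6 ± 23.9). Only the last step had no overlap between neighbours, since the lowest of the 15 other mice had 149 CPM and the highest Sham HFD mouse 114. *Cyp27a1* had the order Sham Chow, RYGB Chow, RYGB HFD and Sham HFD, and again only the last step was free of overlap, between 441 and 420.5 CPM. For the other 8 genes all neighbours in the order overlapped, *Cyp8b1* running from Sham HFD down to RYGB HFD and *Amacr* from RYGB HFD down to Sham HFD.

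The enzymes differed widely in how much mice of one group varied. The within-group SD on the log2 scale was 0.813 for *Cyp7a1*, larger than that of 99.0% of the tested genes, whose median was 0.205. It was 0.464 for *Cyp7b1* (larger than 92.4% of genes), 0.437 for *Akr1d1* (90.5%) and 0.314 for *Cyp8b1* (76.1%). *Slc27a5*, *Cyp27a1*, *Acox2*, *Amacr* and *Baat* lay between 0.141 and 0.174, below the median of all genes. *Baat*, which conjugates the finished bile acid, kept to 202 to 299.6 CPM in all 20 mice.

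The balance of the enzymes was read within each library as the log2 ratio of 2 levels per length, with no test. *Cyp8b1* exceeded *Cyp7a1* in every mouse. The ratio was 3.73, 3.47, 2.04, 2.02 and 2.90 in Sham Chow, 2.83, 3.46, 3.19, 3.16 and 3.10 in RYGB Chow, and 1.97, 3.28, 3.69, 3.31 and 3.16 in Sham HFD. In RYGB HFD it was 1.03, 0.78, 0.72, 2.79 and 4.02, so that 3 mice lay below all mice of the other groups and replicate 5 lay above all of them. The linear median ratio was 2.04 in RYGB HFD and between 7.49 and 9.69 in the other groups.

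*Cyp7b1* and *Cyp7a1* open the ring oxidation of the alternative and the classic pathway. Their log2 ratio was 2.68, 2.21, 0.77, -0.023 and 2.44 in Sham Chow and 1.29, 2.59, 1.87, 2.89 and 1.23 in RYGB Chow. It was -0.36, 0.25, -0.16, 0.13 and -0.45 in Sham HFD, below every RYGB Chow mouse. In RYGB HFD it was -0.52, 0.30, 0.088, 2.52 and 3.05, a range that held all the Sham HFD values. The 2 RYGB HFD mice with a high ratio were replicates 4 and 5, those with the lowest *Cyp7a1*.

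**Figure D3:**
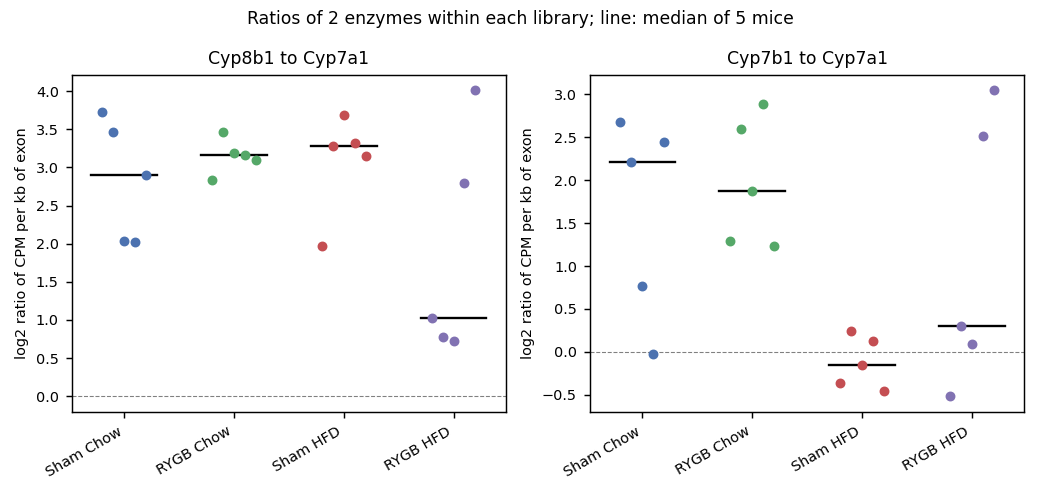
Log2 ratio of CPM per kb of exon (vertical axis) of *Cyp8b1* to *Cyp7a1* and of *Cyp7b1* to *Cyp7a1* in each mouse (points) of the 4 groups (horizontal axis), with the median as a line. The RYGB HFD median of the first ratio is 1.03 against 2.90 to 3.28 elsewhere, and the Sham HFD values of the second lie between -0.45 and 0.25.

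Whether the enzymes varied together among mice of one group was asked for all 45 pairs, with each mouse's log2(CPM + 0.5) taken as its deviation from its group mean. Only *Akr1d1* and *Slc27a5* passed, with Pearson's r = 0.95 and Spearman's rho = 0.88 over 20 mice (permutation tests, p = 3.00e-05 and 5.00e-05, adjusted over 45 pairs 0.00135 and 0.00225). Without the 2 mice farthest from the median of *Akr1d1*, r was 0.85, and within single groups it was 0.87, 0.99, 0.84 and 0.85. RYGB Chow replicate 3, the library with the highest TMM factor, was the lowest of its group in both genes, at 58.2 CPM of *Akr1d1* and 599 CPM of *Slc27a5* against 867 to 989 in the other 4, and without it r was 0.87 over 19 mice (adjusted p = 0.00585, permutation test). With library size as the only scaling, r was 0.93. *Cyp7a1* and *Cyp8b1*, consecutive on the way to cholic acid, had r = -0.11 (adjusted p = 0.862), and *Cyp27a1* and *Cyp7b1* had r = -0.0035 (adjusted p = 0.991), by the same permutation test.

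**Figure D4:**
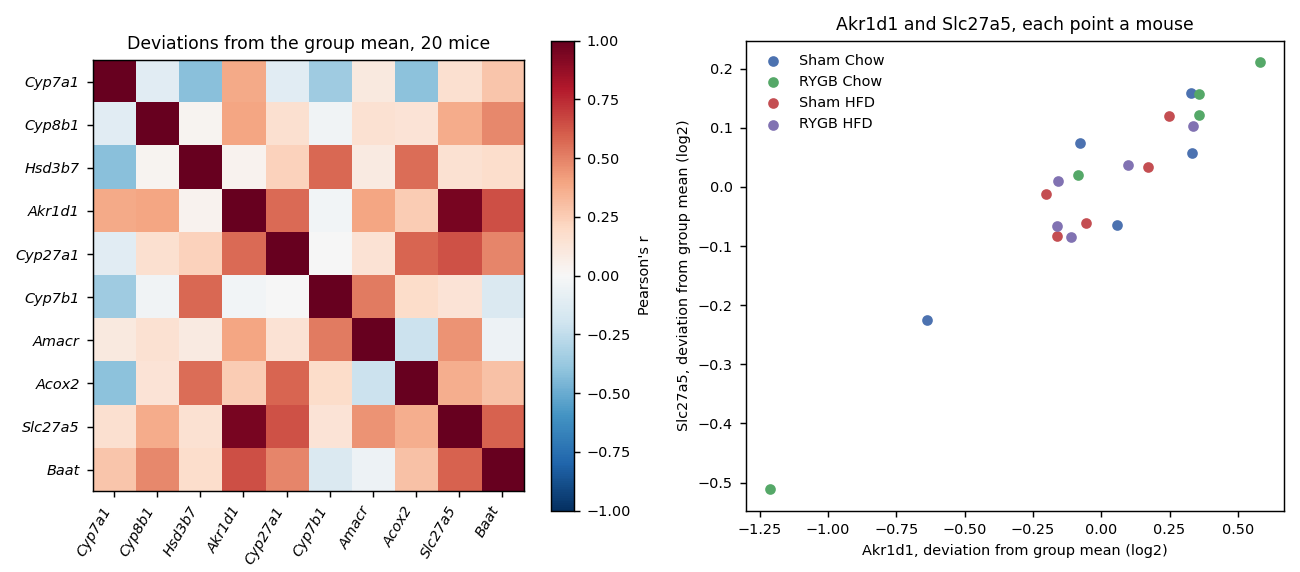
Left, Pearson's r (colour) between pairs of enzymes across 20 mice, computed on deviations from the group mean of log2(CPM + 0.5). Right, the deviations of *Akr1d1* (horizontal axis) and *Slc27a5* (vertical axis) for each mouse, coloured by group. The points rise together, with r = 0.95, and a RYGB Chow mouse lies lowest in both.

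The genes whose levels were most like those of each enzyme over the 20 mice were listed by Pearson's r of log2(CPM + 0.5), as a description. For *Cyp7b1* they were the major urinary protein gene *Mup7* (r = 0.95), the complement gene *C8b* (0.94) and *Mup11* (0.94). The *Mup* genes are near-identical copies, and how reads shared among them were counted is not stated. *C8b* had 59.2 to 100.1 CPM in Sham HFD and 216 to 376 in the other groups, and so had the same gap as *Cyp7b1*. *Cyp27a1* was most like *Hopx* (r = 0.93), *Mpnd* (0.91) and *Cyp4f14* (0.91). *Akr1d1* was most like *Sardh* (0.94), *Car5a* (0.94) and *Gstz1* (0.93), and *Slc27a5* like *Aldh1l1* (0.94), *Aldh4a1* (0.94) and *Dcxr* (0.89). These points share the groups and the library scaling.

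*Cyp7a1* was most like *Gm40770* (r = 0.79), the clock gene *Per3* (0.77) and *Lmo7* (0.77). These were picked as the highest r among the 12289 tested genes, so their r values are not tests of a link. *Per3* was at 47.7, 58.8, 50.7, 23.7 and 7.55 CPM in RYGB HFD, so that replicates 4 and 5 were the lowest in both genes. *Cyp7a1* transcription is known to follow the time of day and feeding. The hour at which livers were taken is not given in the sources used here, and its part in the spread of *Cyp7a1* was not tested. Of 17 tested clock genes, 1 was higher and 0 lower in Sham HFD vs. RYGB HFD (*Nr1d1*, log2 fold change 0.42, adjusted p = 0.0376, edgeR), and 0 passed in the other contrasts. Of all tested genes 16.4% passed between the HFD groups and 21.6% between the sham groups. The summed CPM of the clock list ran from 845 to 1236 in RYGB HFD and from 792 to 1274 in Sham Chow. Opposite changes of single genes can cancel in such a sum, so it does not tell the hour of collection.

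Of 10 tested further genes of bile acid synthesis, 2 rose and 2 fell in RYGB HFD against Sham HFD, where 16.4% of all tested genes passed. *Cyp2c70*, which makes the muricholic acids of mice, was at 155, 163, 119, 147 and 171 CPM in Sham HFD and 264, 281, 231, 269 and 252 in RYGB HFD, with no overlap (log2 fold change 0.78, SE 0.22, adjusted p = 0.0186, edgeR). *Hsd17b4*, the peroxisomal bifunctional protein of the same side-chain steps as ACOX2, fell from 645 ± 15.7 to 469 ± 22.2 CPM (n = 5 each, log2 fold change -0.46, adjusted p = 0.000262, edgeR). Named after their values were seen, the other two were *Slc27a2* (log2 fold change 0.42) and *Cyp46a1* (-1.04). In Sham Chow vs. Sham HFD, *Cyp2c70* was lower in Sham HFD (log2 fold change -1.07, adjusted p = 0.00200, edgeR) and *Hsd17b4* higher (0.30, adjusted p = 0.00767, edgeR), while *Scp2*, also named after its values were seen, was the third of the 10 to pass (0.20). In RYGB Chow vs. RYGB HFD 1 of the 10 fell, *Cyp39a1*, named after its values were seen and with groups that overlapped (-1.29, adjusted p = 0.0367, edgeR), and on chow surgery moved 0. Of all tested genes 21.6% passed between the sham groups, 3.65% between the RYGB groups and 0.057% on chow.

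Of 18 regulators, against Sham HFD 3 rose and 0 fell in RYGB HFD, 1 was lower in Sham HFD than in Sham Chow, and 0 passed in the other contrasts. Of all tested genes 16.4% passed between the HFD groups and 21.6% between the sham groups, so the count in the first contrast was near that background and the count in the second below it. *Hnf4a*, a hepatocyte nuclear receptor that activates *Cyp7a1* and *Cyp8b1*, rose in RYGB HFD against Sham HFD (log2 fold change 0.49, adjusted p = 0.0166, edgeR) and was the gene lower in Sham HFD than in Sham Chow (-0.43, adjusted p = 0.0267, edgeR), with overlap of the groups in the latter, where it is named after its values were seen. The others that rose were *Rxra* (0.29) and *Foxo1* (0.42), the latter named after its values were seen. *Nr0b2*, the gene of SHP, was at 25.1, 41.1, 35.3, 26.8 and 21.3 CPM in Sham HFD and 56.7, 35.7, 38.7, 51.3 and 48.6 in RYGB HFD, with overlap (log2 fold change 0.63, SE 0.22, adjusted p = 0.0589, edgeR). On chow its log2 fold change with surgery was 0.75 (SE 0.23, adjusted p = 0.239). *Nr1h4*, the gene of FXR, had log2 fold changes between -0.20 and 0.045 over the 4 contrasts, and *Nr5a2*, the gene of LRH-1, between -0.032 and 0.23, with none past the threshold.

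Among 12 tested bile acid transporters, 5 rose and 2 fell in RYGB HFD against Sham HFD. Of all tested genes 16.4% passed in this contrast, 8.54% higher and 7.9% lower. The canalicular export pump *Abcb11* (log2 fold change 0.58, adjusted p = 0.00233, edgeR) and the sodium-dependent uptake carrier *Slc10a1* (0.57, adjusted p = 0.00162, edgeR) were among those that rose, *Slco1a1* rose most (3.12), and the basolateral exporter *Abcc3* fell (-1.06). In Sham Chow vs. Sham HFD 2 were higher and 2 lower, the latter *Slc10a1* (-0.59) and *Slco1a1* (-2.85). There 21.6% of all tested genes passed (10.7% lower). *Abcc3* was also the 1 transporter that fell in RYGB Chow vs. RYGB HFD (-0.96), and 0 passed in Sham Chow vs. RYGB Chow. In these contrasts 3.65% and 0.057% of all tested genes passed.

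**Figure D5:**
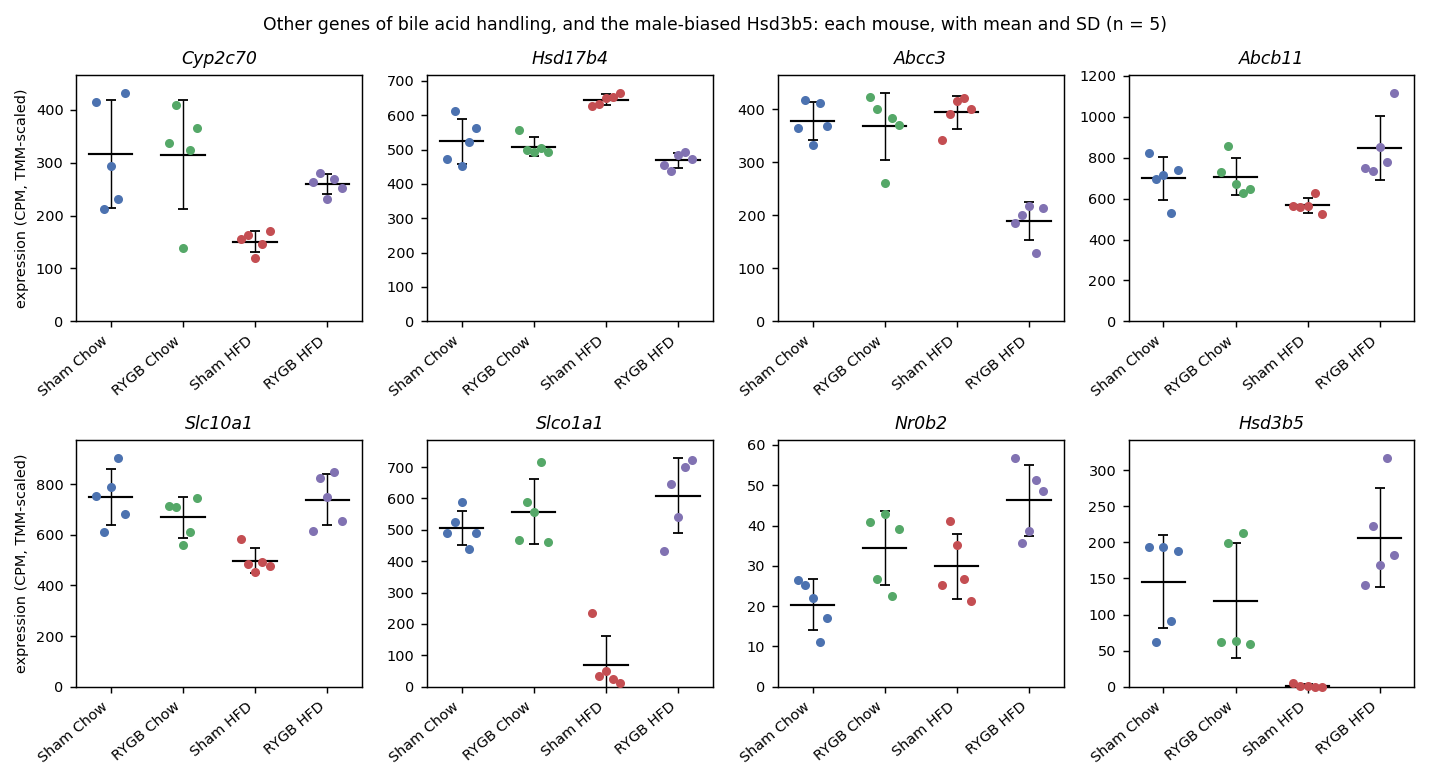
Expression in CPM (vertical axis, linear) of *Cyp2c70*, *Hsd17b4*, the transporters *Abcc3*, *Abcb11*, *Slc10a1* and *Slco1a1*, the repressor *Nr0b2* and the male-biased gene *Hsd3b5* in each mouse (points) of the 4 groups, with mean and SD of 5 mice and error bars ending at 0. Sham HFD has the lowest mean of *Cyp2c70*, *Abcb11*, *Slc10a1*, *Slco1a1* and *Hsd3b5*, and Sham Chow that of *Nr0b2*. The means of *Hsd17b4* and *Abcc3* are lowest in RYGB HFD, that of *Abcc3* at 189 CPM against 368 to 394.

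*Cyp7b1* is more abundant in male than in female mouse liver, and other sex-biased genes moved along the same contrasts. Of 14 male-biased genes, 12 were lower in Sham HFD than in Sham Chow and 8 were higher in RYGB HFD than in the Sham HFD mice, with 0 in the opposite direction. *Hsd3b5* was at 4.86, 0.369, 0.505, 0.0597 and 0.0437 CPM in Sham HFD and 141 to 317 in RYGB HFD. Of 15 female-biased genes only 8 passed the filter, of which 6 were higher in Sham HFD than in Sham Chow. Against Sham HFD 6 were lower in RYGB HFD. A gene could pass the filter through Sham HFD alone, as did *Cyp2b13*, at 2.49 to 10.5 CPM there and at most 0.427 in Sham Chow. The filter thus favoured female-biased genes high in Sham HFD, and their counts cannot be weighed against the shares of all tested genes. Of all tested genes 21.6% passed between the sham groups (10.7% lower) and 16.4% between the HFD groups (8.54% higher and 7.9% lower). In RYGB Chow vs. RYGB HFD 1 male-biased and 1 female-biased gene fell, and on chow surgery moved 0 of either. In these contrasts 3.65% and 0.057% of all tested genes passed. Their part in the *Cyp7b1* difference was not tested.

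Markers of other cell types also differed between groups. For comparison, 21.6% of all tested genes passed between the sham groups and 16.4% between the HFD groups. Of 5 stellate cell markers, 5 were higher in Sham HFD than in Sham Chow and 3 fell in RYGB HFD against Sham HFD, and their summed CPM was 287 to 336 in Sham HFD against 131 to 283 in all other mice. Of 6 Kupffer cell and macrophage markers, 4 were higher in Sham HFD than in Sham Chow and 0 passed between the HFD groups. Their sums were 62.8 to 155 CPM in Sham Chow, 122 to 286 in RYGB Chow, 137 to 198 in Sham HFD and 127 to 225 in RYGB HFD. The Sham HFD sums thus lay within the range of RYGB Chow and of RYGB HFD. Of the 5 hepatocyte markers, 3 were lower in Sham HFD than in Sham Chow, and between the HFD groups 4 were higher and 1, *Ttr*, named after its values were seen, lower in RYGB HFD. Of 2 tested cholangiocyte markers 1 was higher in Sham HFD than in Sham Chow, with sums up to 58.5 CPM, and 0 of 4 endothelial and 0 of 3 red cell markers passed in any of the 4 contrasts. None of the 4 T and B cell markers passed the filter, and their sums reached 7.73 CPM. Of the intestinal markers only *Fabp2* was tested, at 163 CPM in Sham HFD against 64.5 to 97.0 in the other group means, while *Cdx2* had at most 3 counts in every mouse. The part of these cells in the falls of *Cyp7b1* and *Cyp27a1* was not tested.

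Zonation genes moved in both directions. Of 10 pericentral genes, 3 were higher and 1 lower in Sham HFD than in Sham Chow, and in RYGB HFD 2 rose and 2 fell against Sham HFD. Of 10 periportal genes the counts were 2 and 4 in the first contrast and 1 and 2 in the second. Of all tested genes 21.6% passed in the first contrast (10.7% lower) and 16.4% in the second (8.54% higher and 7.9% lower). In the chow contrast and between the RYGB groups 0 of either list passed, where 0.057% and 3.65% of all tested genes did. *Cyp7a1* and *Cyp8b1*, whose zones were not measured here, had fold changes of opposite sign in Sham HFD vs. RYGB HFD, of which only that of *Cyp8b1* passed.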

How the data were processed

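The authors trimmed paired-end reads with Trimmomatic 0.36, aligned them to mm10 with HISAT2 2.1.0 and deposited gene counts from featureCounts 1.5.0-p3, without normalization, for 20 liver libraries from poly(A) RNA prepared with a strand-marking protocol. The strand setting, the annotation release and the handling of reads in several genes are not given in the sources used here. Counts are PCR reads without molecular identifiers. GENCODE M21 gave a symbol for 54495 of 54532 genes.

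From the counts, edgeR 4.0.16 (R 4.3.3) fitted all 4 groups with TMM factors after the filter of 2 CPM in 3 mice, which is the study's own. Exact permutation tests used log2(CPM + 0.5), and correlations 100000 shuffles within groups. The 95% intervals use edgeR's standard errors. Alternatives were other scalings and filters, single contrasts, the replicate block, limma-voom (limma 3.58.1), DESeq2 1.42.0 and leaving out each mouse. The procedure was tested on simulated data.

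The enzymes and gene lists were chosen with earlier results of these data known. From each other list, at most 2 genes per contrast were named, those with the largest change past the threshold and no overlap of groups, besides *Nr0b2*, *Nr1h4*, *Nr5a2*, *Abcb11* and *Slc10a1*, and the 3 genes most like an enzyme. Exceptions are marked. The labels name no sequencing batch, and of the 20 libraries 0 pairs were identical.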

Additional observations from a re-analysis of the deposited data

Results flagged for a closer look

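Among 48 sets of 5 mice examined, 1 held a mouse far from the others by Dixon's criterion (critical value 0.71), where chance gives about 1 in 20. *Slc27a5* was at 599 CPM in RYGB Chow replicate 3 and at 867 to 989 CPM in the other 4 RYGB Chow mice. The gap to the nearest was 0.736 of the whole range.

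The effect of surgery differed between HFD and chow in 2 enzymes by the interaction test of edgeR. The difference of log2 fold changes was 0.54 for *Cyp27a1* (adjusted p = 0.0285) and 1.89 for *Cyp7b1* (adjusted p = 0.00704). All 5 RYGB HFD mice lay above all 5 Sham HFD mice in both genes, and the chow groups overlapped in both.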

How the results depend on the processing

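In all 20 fits that left out 1 mouse and in the other settings, the 4 enzymes of Sham HFD vs. RYGB HFD and the 2 of Sham Chow vs. Sham HFD passed, *Cyp7b1* with log2 fold changes of 1.40 to 1.79 and -2.05 to -1.72 without single mice. In the fit of only the 2 groups *Akr1d1* passed too (-0.38, adjusted p = 0.0368). At an unadjusted p under 0.05 there were 2 enzymes in RYGB Chow vs. RYGB HFD and 4 in the interaction. After adjustment there were 0 and 2, and without single mice from 0 to 1 and from 1 to 3. The interaction of *Cyp27a1* passed in 15 of 20 such fits, with adjusted p up to 0.0582, and was lost without Sham Chow 5, Sham HFD 2, Sham HFD 3, RYGB HFD 2 or RYGB HFD 5. That of *Amacr* passed in DESeq2 (0.41, adjusted p = 0.0375) and without Sham Chow 2 or RYGB Chow 4. Why these calls moved was not tested.

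The values that changed sign were all of fold changes that passed no test. With library size only, log2 fold changes were -0.040 for *Acox2* in Sham HFD vs. RYGB HFD, 0.10 for *Baat* in Sham Chow vs. Sham HFD, -0.00157 for *Acox2* in RYGB Chow vs. RYGB HFD and -0.033 for the interaction of *Akr1d1*. *Acox2* in RYGB Chow vs. RYGB HFD was also -0.00413 without the filter and -0.000572 with the replicate block, and the interaction of *Baat* was 8.2e-05 in limma-voom. Mean differences before the exact tests changed sign with library size only for *Cyp7a1* (0.026) and *Baat* (0.10) in Sham Chow vs. Sham HFD, *Hsd3b7* (-0.017) and *Acox2* (-0.046) in Sham HFD vs. RYGB HFD and *Acox2* (-0.00861) in RYGB Chow vs. RYGB HFD, and with a pseudocount of 2 for *Hsd3b7* (-0.00140).

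Without single mice, log2 fold changes changed sign within these ranges: in Sham Chow vs. RYGB Chow *Cyp27a1* (-0.097 to 0.039) and *Amacr* (-0.041 to 0.066), in Sham HFD vs. RYGB HFD *Acox2* (-0.034 to 0.089), in Sham Chow vs. Sham HFD *Baat* (-0.053 to 0.014) and *Cyp7a1* (-0.47 to 0.14), in RYGB Chow vs. RYGB HFD *Slc27a5* (-0.045 to 0.11), *Baat* (-0.095 to 0.047), *Acox2* (-0.079 to 0.044) and *Cyp7b1* (-0.18 to 0.19), and in the interaction *Baat* (-0.075 to 0.070) and *Akr1d1* (-0.14 to 0.21).

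With library size only, the median log2 fold change of all genes was 0.12 in Sham Chow vs. Sham HFD, against -0.0046 with TMM, and -0.12 in the interaction, against 0.015. The share of calls that were higher was then 80.3% in Sham Chow vs. Sham HFD, 26.8% in Sham HFD vs. RYGB HFD and 20.4% in the interaction. Called over all genes, DESeq2 gave 92 in Sham Chow vs. RYGB Chow against 7 in edgeR and 751 in RYGB Chow vs. RYGB HFD against 448, and the fit of only the 2 groups gave 0 and 184. Same-numbered mice did not deviate together (mean r -0.060 to 0.050, and 2 of 20 mice correlated best with their own number). With the replicate block, 4 enzymes passed in Sham HFD vs. RYGB HFD, 2 in the diet contrast of sham mice, 0 on chow, 0 between the RYGB groups and 2 in the interaction, as without it. The level of *Hsd3b7* rests on 1 to 29 counts per mouse and stays uncertain, and the spread of *Cyp7a1* leaves its intervals wide.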
